A study of Mus musculus with 4 samples.

Results

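Of 8 genes of myogenic regulation and muscle satellite cells, Myod1, Myf5, Myog, Myf6, Pax7, Cdh15, Six4 and Ncam1, 1 had a row of its own in the count table of 13825 genes. That gene was Ncam1, the neural cell adhesion molecule, and the other 7 were not analysed here. The values below therefore describe Ncam1, and the satellite cell identity of the set could not be checked against its own markers. Tibialis anterior (TA) muscle of adult male mice was sequenced 14 days after surgery in 4 groups. WS and WD are the sham and denervated muscles of WT mice, and KS and KD those of FGF21KO mice. WT mice were C57BL/6J per the study's methods, and FGF21KO mice lacked the gene in the whole body. The left sciatic nerve was cut, and the right leg of the mice served as the control. The labels give a removed nerve piece of 2 mm and an innervated right leg, whereas the study's methods give a longer piece and a sham operation on that leg.

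The RNA of 4 muscles was pooled per group, so each group was 1 library and no pair of groups had a replicate check. Total counts over the genes of the table ranged from 25249879 in WS to 34141303 in KS. The 35 mitochondrially encoded genes took between 19.7% of the counts in WD and 30.9% in KS, with 20.8% in KD and 27.4% in WS. Fgf21 itself was not analysed here, which leaves the genotype labels without a check by the targeted gene.

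NCAM1 is a cell surface protein of the immunoglobulin superfamily that binds NCAM1 on a neighbouring cell. It is made in forms held by a lipid anchor and in forms that cross the membrane, and it can carry long chains of polysialic acid, added by the enzymes St8sia2 and St8sia4, that weaken adhesion. In developing muscle it covers myoblasts and myotubes, in innervated adult fibres it is concentrated at the neuromuscular junction, and it is known to return along the surface of fibres that lose their nerve. Satellite cells and Schwann cells carry it as well, so a level in whole muscle RNA is a sum over several cell types.

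Ncam1 lies on the minus strand of chromosome 9 and covers 296.79 kb in GENCODE M21 on GRCm38, from 49502136 to 49798925. The labels name GRCm39 for the files, so these coordinates are not on the build of the counts. The annotation holds 7 transcripts, of which 6 are coding, with a joint exon length of 8664 bases. The counts sum these transcripts. Which form was measured therefore cannot be read from them. Ncam1-201 to Ncam1-204 hold no short internal exon and differ at their 3′ ends, with last exons of 516, 698 and 3428 bases in Ncam1-202, Ncam1-203 and Ncam1-204. The short internal exons of Ncam1-205 and Ncam1-206 are shown because one block of them is known from muscle.

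**Figure D1:**
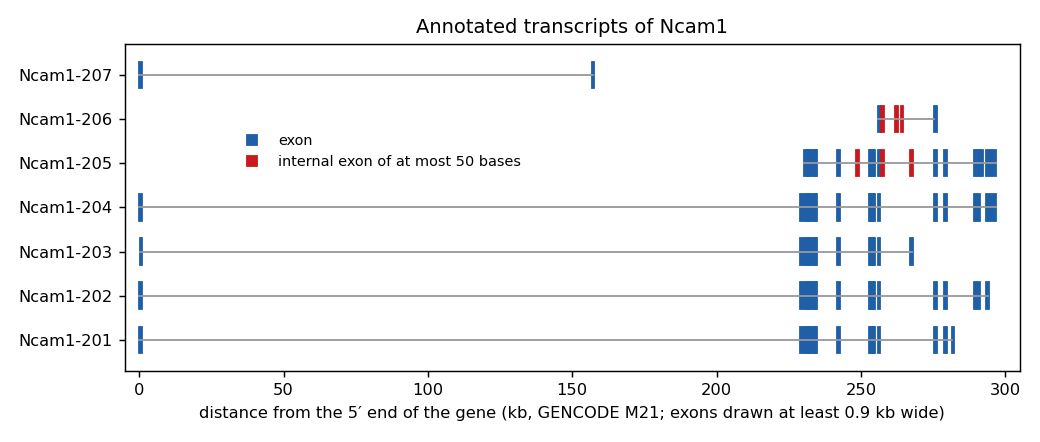
Annotated transcripts of Ncam1, drawn as distance in kb from the 5′ end of the gene, with exons as boxes widened to be visible and internal exons of at most 50 bases in red. The short alternative exons are in Ncam1-205 and Ncam1-206, and most exons of the coding transcripts lie beyond 200 kb, behind the long first intron.

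In the 3 spliced stretches below, read 5′ to 3′ along the transcript, the alternative exons are in capitals and the 18 flanking bases on each side are in lower case. The first holds the 30-base exon known as VASE, at chr9:49550540-49550569, which lengthens an immunoglobulin domain. The second holds an exon of 15 bases, at chr9:49541888-49541902, joined to one of 3 bases, at chr9:49531974-49531976. The third holds the same exon of 15 bases followed by exons of 48 bases, at chr9:49536990-49537037, and 42 bases, at chr9:49535209-49535250, a block known as the muscle-specific domain.
Ncam1-205, VASE: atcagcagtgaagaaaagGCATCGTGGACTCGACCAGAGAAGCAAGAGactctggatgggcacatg
Ncam1-205, short insert: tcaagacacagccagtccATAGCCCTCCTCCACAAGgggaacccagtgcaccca
Ncam1-206, muscle-specific insert: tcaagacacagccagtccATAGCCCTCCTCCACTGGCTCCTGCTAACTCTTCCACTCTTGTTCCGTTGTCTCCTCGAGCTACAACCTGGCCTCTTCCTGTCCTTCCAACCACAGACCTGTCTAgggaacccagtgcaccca
The short insert and the muscle-specific insert lie between the same flanking exons and begin with the same 15 bases.

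Ncam1 was counted 234 times in WS against 3319 times in WD, and 235 times in KS against 3298 times in KD. In CPM, counts scaled to a common library total with TMM factors, its level was 10.1 in WS (95% counting interval 8.82 to 11.4) and 7.91 in KS (6.93 to 8.99). In the denervated libraries it was 102 CPM in WD (98.2 to 105) and 107 in KD (103 to 110). Both denervated libraries stood far above both sham libraries, while the counting intervals of the 2 sham libraries overlapped and those of the 2 denervated libraries did as well. The counting interval of the log2 ratio of KS over WS was nonetheless negative throughout, at -0.62 to -0.08. The intervals cover counting error only and leave out the spread between mice.

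**Figure D2:**
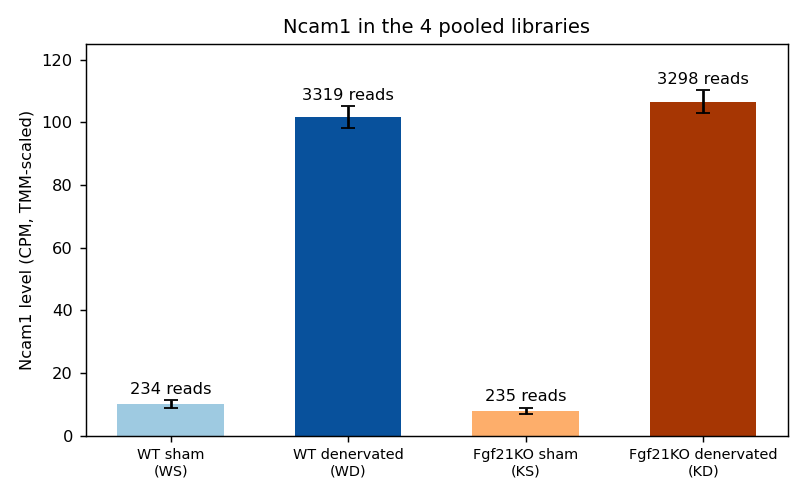
Ncam1 level in each of the 4 pooled libraries as bars, in TMM-scaled CPM on a linear axis from 0, with 95% counting intervals as error bars and the read counts above them. The sham libraries stand at 10.1 and 7.91 CPM and the denervated libraries at 102 and 107 CPM.

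In WD vs. WS, Ncam1 was 10.1-fold higher, a log2 ratio of 3.33 with a counting interval of 3.14 to 3.53. In KD vs. KS, it was 13.5-fold higher, a log2 ratio of 3.74 with an interval of 3.56 to 3.95. A ratio of that size in either direction was reached by 0.55% of the 13084 genes tested for WT and by 0.428% for FGF21KO, where 14.8% and 13.6% of genes were at least 2-fold apart. For these pairs of single libraries no p-value was computed.

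Denervation over both genotypes was tested with edgeR's quasi-likelihood F-test, in a model where the genotypes stand in for replicates. Ncam1 rose 11.7-fold, with a log2 fold change of 3.55 ± 0.10 (SE) and a Benjamini-Hochberg adjusted p of 5.6e-22. It ranked 55 of 13084 by the size of the change and 30 by p. The SE, here and below, was derived from the fold change and the F value of the test, and is no spread between replicates. At an adjusted p below 0.05 and at least 2-fold, 13.1% of all genes tested were called, 6.84% higher and 6.24% lower. Without TMM, on total counts only, the split of all calls moved from 895 of 1711 higher to 1704 of 2028 higher, and the median log2 ratio over all genes moved to 0.29 for WD vs. WS and to 0.36 for KD vs. KS. With 1 library a group, the p-values measure no spread between mice or between like libraries. The model leaves 1 residual degree of freedom, the difference of the denervation change between genotypes. The p-values draw chiefly on a spread estimated over all genes, with a median prior of 26.9 degrees of freedom. In bulk RNA, more cells of a type and more RNA per cell cannot be told apart.

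**Figure D3:**
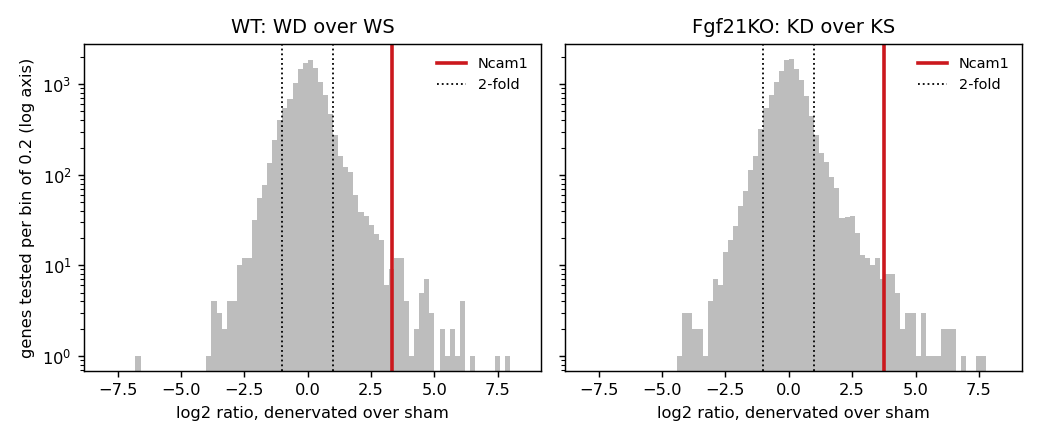
Histograms of the log2 ratio of denervated over sham libraries for the 13084 genes tested, WT on the left and FGF21KO on the right, with the number of genes in each bin of 0.2 on a log axis. The red line marks Ncam1, at 3.33 and 3.74, in the right tail and well past the dotted lines at 2-fold.

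Per kb of joint exon, Ncam1 had 1.16 CPM in WS against 11.7 in WD, and 0.913 in KS against 12.3 in KD. This level placed it at percentile 28.0 of 13134 genes with a known length in WS and 24.2 in KS. In the denervated muscles it stood at percentile 79.0 in WD and 79.9 in KD. Ncam1 thus lay in the lower part of the range in both sham libraries and in the upper part in both denervated libraries.

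Whether the loss of FGF21 goes with another Ncam1 level was compared within each surgery. In KS vs. WS the ratio was 0.786, a log2 ratio of -0.35 with a counting interval of -0.62 to -0.08, and 19.8% of all genes were at least as far apart. In KD vs. WD it was 1.05, a log2 ratio of 0.07 with an interval of -0.0014 to 0.14, and 66.7% of genes were at least as far apart. Over both surgeries the log2 fold change of FGF21KO vs. WT was -0.06 ± 0.10 (SE), with an adjusted p of 0.941 by edgeR's quasi-likelihood test. In that test 0.176% of all genes were called, and 2.04% of genes were at least 2-fold apart between the sham libraries and 1.55% between the denervated ones.

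The log2 ratio of denervation was 0.41 larger in FGF21KO than in WT, with a counting interval of 0.14 to 0.68. A difference of that size was found in 19.9% of all genes tested, and in 13.7% of those whose mean count reached 50. It was not tested, since the interaction is the 1 residual degree of freedom of the design. The sham libraries, which set this difference, hold 234 and 235 reads of Ncam1.

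Adhesion genes gave 8 genes for comparison, of 14 in a list of NCAM relatives, polysialic acid enzymes, cadherins and catenins. Of the 8, 1 was called higher and 0 lower, a share near the 13.1% of all genes called, and the median log2 fold change was -0.06, against 0.01 over all genes. With no fold threshold, 6 of the 8 had an unadjusted p below 0.05, as had 58.0% of all genes tested, and DESeq2's Wald test likewise gave 1 higher and 0 lower. The gene called was Jup, which encodes plakoglobin, a catenin of cell junctions. It had 2317 reads in WS against 6800 in WD, with 2661 in KS against 5434 in KD, a log2 fold change of 1.02. Ncam1 thus changed by more than every one of the 8.

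St8sia4, the polysialic acid enzyme in the table, had 217 reads in WS against 201 in WD, with 328 in KS against 176 in KD. Its log2 fold change was -0.78 with an adjusted p of 0.000135, short of the 2-fold threshold and opposite in sign to that of Ncam1. On total counts only, Ctnna1 (alpha-catenin) and Cdh13 (T-cadherin) were called higher too, so the count of 1 became 3.

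Per kb, the catenin Ctnnb1 led these genes in all 4 libraries, at 55.3 CPM per kb in WS against 54.6 in WD, and 53.1 in KS against 55.1 in KD. Ncam1 stood in place 6 of 9 in WS and 7 of 9 in KS, and in place 5 in both WD and KD. It moved past p120-catenin (Ctnnd1), which had 9.10 CPM per kb in WS against 6.29 in WD, and 7.58 in KS against 6.92 in KD. In KS it also lay below R-cadherin (Cdh4), at 1.24 CPM per kb, and above it in the other libraries, where Cdh4 had 0.860 in WS, 0.857 in WD and 0.713 in KD.

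**Figure D4:**
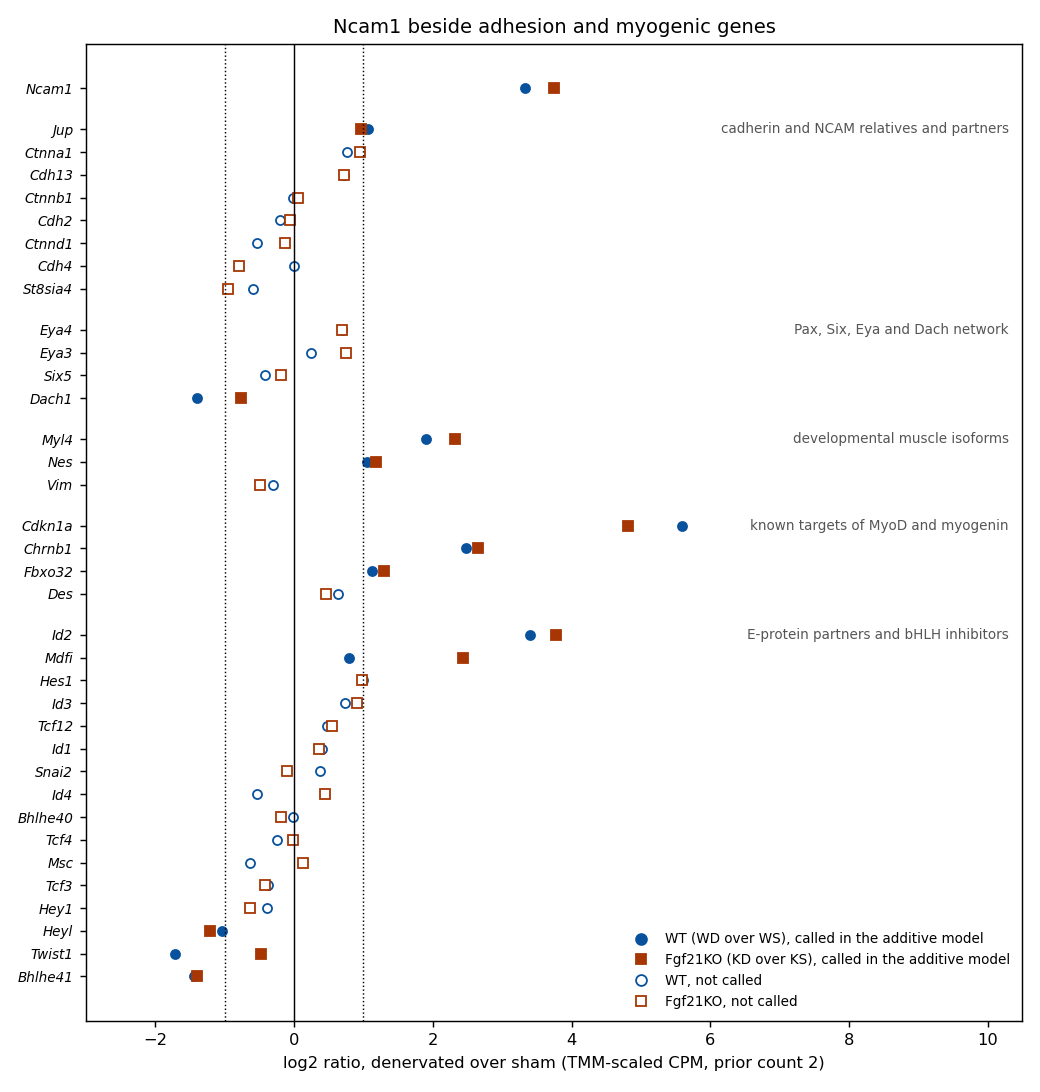
Log2 ratio of denervated over sham libraries in WT (circles) and FGF21KO (squares) for Ncam1 and the tested genes of 5 lists, with filled symbols for genes called for denervation in the additive model and dotted lines at 2-fold. Ncam1, at 3.33 and 3.74, lies far to the right of the other adhesion genes and close to Id2.

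Around the myogenic factors, 9 lists of 122 genes were counted, adhesion genes included, and 75 were tested. Of the 75, 16 were called higher with denervation, 9 were called lower and 50 were not called. Over all genes tested, 6.84% were called higher and 6.24% lower, the shares to set beside each list and marker count below. On total counts the same 75 gave 23 higher and 1 lower, so that 8 of the 9 lower calls below fell short of the 2-fold threshold there. The 8 kept a negative sign, at -0.98 to -0.68, and 7 of them kept an adjusted p below 0.05. A change as large as that of Ncam1 was found in 3 of the 75, Cdkn1a, Rrm2 and Id2.

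Partners and inhibitors of the myogenic helix-loop-helix factors came first. Of 16 tested of 17, 2 were called higher and 3 lower, with a median log2 fold change of -0.08. Id2, which binds E proteins and keeps them from DNA, had 78 reads in WS against 1182 in WD, with 75 in KS against 1098 in KD. It rose by a log2 fold change of 3.62 ± 0.14 (SE), and its denervated libraries lay far above its sham libraries in both genotypes. Mdfi, an inhibitor of the MyoD family, was called at 1.64 from 6 to 43 reads a library, with an adjusted p of 0.0782 by DESeq2's Wald test. The repressors called lower were Bhlhe41 at -1.42, Twist1 at -1.18 and Heyl at -1.14. Twist1 had 16 to 41 reads, with an adjusted p of 0.213 by DESeq2's Wald test. On total counts the calls of Twist1 and Heyl were lost, and Id3 and Hes1 were called higher.

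Of 15 genes of the network of Pax, Eya and Dach genes and their homeobox partners, which acts upstream of the myogenic factors, 4 were tested. Dach1, a corepressor, was called lower at -1.09, from 185 reads in WS against 97 in WD, with 200 in KS against 122 in KD. That call was lost on total counts. Eya4, a coactivator of homeobox proteins, had a log2 fold change of 0.69, Eya3 one of 0.50 and Six5 one of -0.32, and these 3 were not called. Eya4 was called higher on total counts, at 1.01.

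Among MEF2 factors, the partners of the myogenic factors, and the class IIa deacetylases that repress them, 7 of 8 were tested. Hdac4 had 1030 reads in WS against 9437 in WD, with 1233 in KS against 9222 in KD. It rose by 2.78 ± 0.08 (SE) on the log2 scale, and Mef2a rose by 1.04. Hdac5, at -1.16, and Hdac7, at -1.06, were called lower, and Hdac9, at -0.85, was not called. On total counts Hdac5 was at -0.84 and Hdac7 at -0.74, short of 2-fold, and Hdac4 was at 3.10. Hdac9 was at -0.53 there. Hdac4 thus rose while Hdac5, Hdac7 and Hdac9 kept negative signs under both scalings. The paper reports HDAC5 and HDAC7 protein as raised by denervation, a measure unlike these RNA counts.

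Known targets of MyoD and myogenin were represented by 4 of 10 genes, of which 3 were called higher and 0 lower, with a median of 1.89. With no fold threshold, the 4 had an unadjusted p below 0.05, beside 58.0% of all genes, and DESeq2's Wald test likewise gave 3 and 0. Cdkn1a, the p21 inhibitor of cyclin-dependent kinases, had 175 reads in WS against 11926 in WD, with 338 in KS against 9971 in KD, a log2 fold change of 5.17. Chrnb1, a subunit of the acetylcholine receptor, had 886 reads in WS against 6952 in WD, with 1088 in KS against 7125 in KD, a log2 fold change of 2.57. The ubiquitin ligase gene Fbxo32 was called at 1.21, and desmin (Des), at 0.54, was not called. These genes have other regulators too, and the levels of MyoD and myogenin were not analysed here.

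Of 9 genes of developmental muscle isoforms, 3 were tested. Myl4, the embryonic and atrial light chain, had 175 reads in WS against 926 in WD, with 236 in KS against 1238 in KD, a log2 fold change of 2.14. Nes, which encodes the intermediate filament nestin, was called higher at 1.12. Vimentin (Vim) had a log2 fold change of -0.40 and was not called.

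Genes of the satellite cell surface and niche gave 13 of 16 genes, of which 4 were called higher and 2 lower, with a median of -0.26. Peg3, an imprinted gene that marks muscle stem cells and interstitial cells, had 1502 reads in WS against 10039 in WD, with 1633 in KS against 9808 in KD, a log2 fold change of 2.39. Notch2 was called higher at 1.78, whereas Notch3 at -1.30 and Notch1 at -1.13 were called lower. The syndecan Sdc4, at 1.58, and the hepatocyte growth factor receptor gene Met, at 1.15, were the other 2 called higher. The remaining 7 were not called, and their log2 fold changes were negative, from -0.99 for Sdc3 and -0.72 for Cd34 to -0.09 for Spry1. On total counts Vcam1, Itga7 and Spry1 turned positive. The Notch receptors thus differed in sign, while on total counts Notch3 at -0.98 and Notch1 at -0.80 were no longer called.

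Of 18 myoblast fusion genes 10 were tested, and 1 was called, Jam2, which encodes a junctional adhesion molecule. It was called lower at -1.003, at the threshold, and the call was lost on total counts and when only genes with a mean count of 50 or more were tested. With no fold threshold, 9 of the 10 had an unadjusted p below 0.05, beside 58.0% of all genes. At an adjusted p below 0.05 by edgeR's quasi-likelihood test, 2 were higher and 6 lower. The median log2 fold change was -0.31, and Cdon and Cd81 turned from negative to positive on total counts. Of 15 cell cycle genes 10 were tested, 2 were called higher and 0 lower, while 6 of the 10 had an unadjusted p below 0.05, near the 58.0% over all genes. Rrm2, a subunit of ribonucleotide reductase, had 31 reads in WS against 439 in WD, with 30 in KS against 601 in KD, a log2 fold change of 3.82. Ccne1 was called at 1.97 from 7 to 52 reads a library. Mki67, a marker of dividing cells, had 19 reads in WS against 77 in WD, with 28 in KS against 40 in KD, a log2 fold change of 0.99 that was not called, and on total counts it was called at 1.31. Ccnd1 at -0.56, Cdk1 at -0.20 and Mcm2 at -0.13 had negative changes and were not called. The other cell cycle genes tested had positive ones. Cdk1 and Mcm2 turned positive on total counts.

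For genotype, 0 of the 75 genes were called by edgeR's quasi-likelihood test, 11 of the 75 had an unadjusted p below 0.05, beside 7.93% of all genes, and DESeq2's Wald test called 0. Ccnd1, which encodes cyclin D1, had an adjusted p of 0.00674 with a log2 fold change of -0.66 for FGF21KO vs. WT, short of 2-fold.

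Markers of the other cells of the muscle moved as well, and their part in the Ncam1 result was not tested. Of 6 Schwann cell markers, 3 were in the table, Pmp22, Mbp and Ngfr. Their summed level was 51.6 CPM in WS and 53.7 in KS, against 20.4 in WD and 20.8 in KD. Pmp22, a myelin gene, fell by 2.25 on the log2 scale, and the other 2 were not called. The sum chiefly follows Pmp22, which alone had 31.3 CPM in WS against 7.08 in WD, and 34.6 in KS against 6.72 in KD. Ngfr had a log2 ratio of 0.02 in WD vs. WS and of -1.06 in KD vs. KS. The defining markers Sox10, S100b and Cdh19 were not analysed here.

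Macrophage markers summed to 24.1 CPM in WS against 58.6 in WD, and 25.9 in KS against 57.2 in KD, and 3 of 6 were called higher. Cd68 had 23 reads in WS against 350 in WD, with 32 in KS against 333 in KD, a log2 fold change of 3.37. Adgre1 was called at 1.31, with an adjusted p of 0.0810 by DESeq2's Wald test, and Mrc1 at 1.13. On total counts the 3 called became 6.

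Endothelial markers summed to 449.9 CPM in WS against 204 in WD, and 369 in KS against 200.02 in KD, and 2 of 5 were called lower, Cdh5 at -1.16 and Kdr at -1.07. Both calls were lost on total counts. Markers of fibro-adipogenic progenitors summed to 618 CPM in WS against 404 in WD, and 596 in KS against 421 in KD. Of these 6 genes, 0 were called by edgeR's quasi-likelihood test or by DESeq2's Wald test, and 5 had an unadjusted p below 0.05, beside 58.0% of all genes.

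Of 9 myofibre markers 2 were in the table. Myh1, a fast myosin heavy chain, had 510937 to 641610 reads a library, and its log2 fold change of -0.47 was not called. That level checks for skeletal muscle but not for TA in particular. Tnnt1, the slow troponin T, had 146 reads in WS against 1483 in WD, with 168 in KS against 1369 in KD and was called higher at 2.91. One adipocyte marker and 1 tenocyte marker, Fmod at -0.96, were tested and not called, and the T or NK cell markers were not analysed here.

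**Figure D5:**
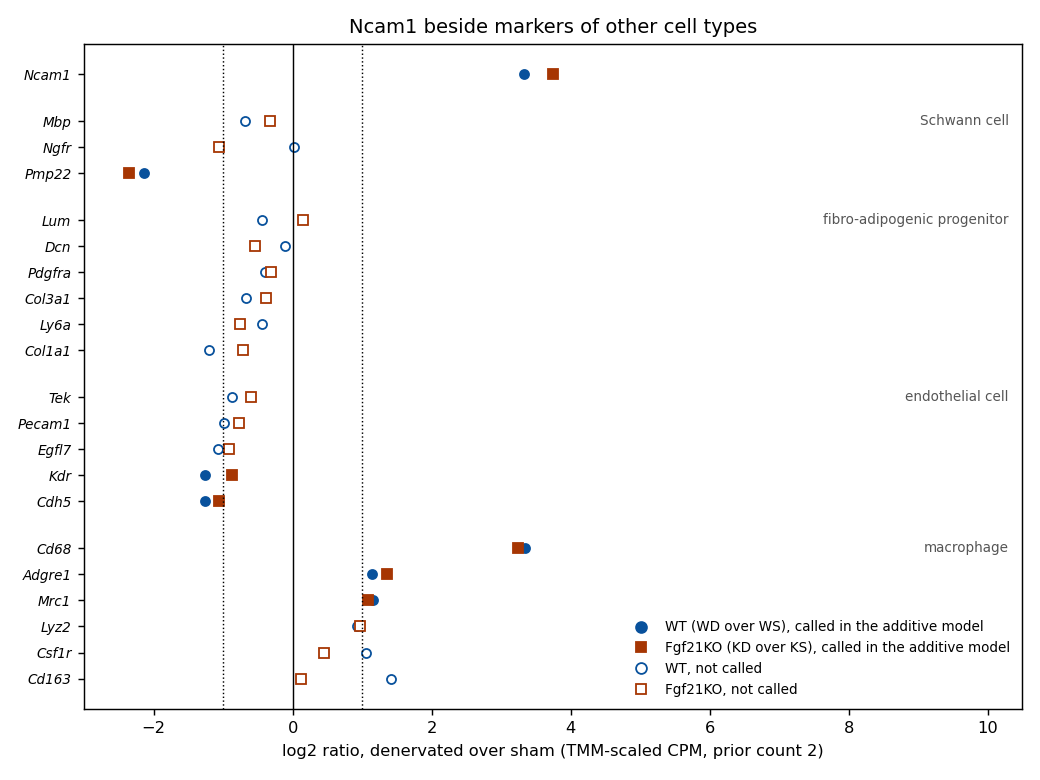
Log2 ratio of denervated over sham libraries in WT (circles) and FGF21KO (squares) for Ncam1 and the tested markers of 4 other cell types, with filled symbols for genes called for denervation in the additive model and dotted lines at 2-fold. Cd68 lies near Ncam1 on the right, and Pmp22, Kdr and Cdh5 are the filled symbols on the left.

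The 2 genes whose profiles lay nearest to that of Ncam1 were Id2 and Rap1gap2, among 11316 genes whose mean count reached 50. Nearness was the Euclidean distance between log2 CPM over the 4 libraries, each gene centred on its own mean, and it was 0.0977 for Id2 and 0.170 for Rap1gap2. Rap1gap2, which encodes a GTPase-activating protein of Rap1, had 225 reads in WS against 3518 in WD, with 254 in KS against 3726 in KD. With 4 libraries, likeness over this profile is chiefly likeness of the sham and denervated levels.

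On the chromosome, the nearest tested genes on either side of Ncam1 in RefSeq order were Ttc12 and Rpl10-ps3, with Zw10 and Plet1os beyond them. Ttc12 had a log2 fold change of 0.56 with an adjusted p of 0.0339, and Zw10 had one of 0.19. Rpl10-ps3, a pseudogene whose reads may come from its parent, had one of 0.86, and Plet1os had one of -0.96. Their adjusted p-values by edgeR's quasi-likelihood test were 1.6e-06 and 6.1e-06, and in KD vs. KS Plet1os was past 2-fold, at -1.11. These 4 neighbours were not called, except Rpl10-ps3 on total counts. Most genes were likewise not called, as 13.1% of all genes tested were called. An antisense transcript, Gm11149, overlaps Ncam1 in the annotation. The library kit keeps strand, but the sources used here do not say whether the counting used it.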

How the data were processed

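The authors deposited raw read counts per gene, 1 column per pooled library, and a second table named for FPKM. The deposited log2 values there were found to be log2(scaled count + 1), with 1 scale for each library and no gene length. Libraries were made with a stranded mRNA kit, and the submitters' notes name GRCm39 and FastQC. The aligner and counter are not given in the sources used here.

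Groups followed the labels. The 13084 genes whose mean count reached 10 were tested with edgeR 4.0.16 in R 4.3.3, with TMM, log2 CPM at a prior count of 2 and an additive model of genotype and surgery, which leaves 1 residual degree of freedom. Genes were called at a Benjamini-Hochberg adjusted p below 0.05 and at least 2-fold. Pairs of libraries got ratios with 95% Clopper-Pearson counting intervals (Python 3.11.15, scipy 1.17.1). At 3 counts the level was 0.0919 to 0.129 CPM. Exons came from GENCODE M21, whose lengths covered 95.0% of genes. Alternatives included DESeq2 1.42.0. The denervation test was tried on simulated counts with 200 of 13084 genes changed 4-fold and no genotype effect. That setting is simpler than the data and cannot show how the model fares on them.

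The genes and lists were chosen with earlier results of these data known. The genes named are the 8 of the set, the 2 highest and 2 lowest called genes of each list, and the 2 genes nearest in profile to Ncam1. Further genes named in the text were picked with their values in view. Some marker genes of the lists are not reported here and were left out of the sums.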

Additional observations from a re-analysis of the deposited data

How the results depend on the processing

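The call of Ncam1 was kept under 11 of 11 alternatives (DESeq2's size factors and Wald test, total counts, TMM without mitochondrial genes, a mean count of at least 50, no filter, surgery as the only term, and each library left out), with log2 fold changes of 3.37 to 3.87 and a largest adjusted p of 1.02e-09. On total counts only, its log2 ratio became 3.61 in WT and 4.10 in FGF21KO. Without each library in turn, with surgery as the only term, 1544 to 1746 genes were called for denervation, and Ncam1 was at 3.37 to 3.71. In these fits the arm with 1 library is assumed to vary like the other, whose 2 libraries differ in genotype. With no fold threshold, 7003 genes were called for denervation and 88 for genotype. The 23 genotype calls became 15 among genes whose mean count reached 50 and 13 with DESeq2's Wald test. With the deposited log2 values, 1188 genes in WT and 1117 in FGF21KO were at least 2-fold apart between surgeries, against 1936 and 1780, and 29 in sham and 25 in denervated muscle between genotypes, against 267 and 203. The last 2 counts were 68 and 46 among genes whose mean count reached 50. The causes were not tested. Of the alternative values computed, 136 kept their side of the threshold, lay within 1.5 times the count or, for ratios, within the counting interval. The other 21 were 19 counts and the 2 Ncam1 ratios on total counts, which kept their direction. For counts only the total was compared, so a kept count can hide a change of direction. The denervation calls on total counts were kept in this sense, though 1704 of 2028 were higher there against 895 of 1711. The T or NK cell list, with 0 genes tested, could not move and was counted as kept. No paired analysis was possible because the labels give no replicate numbers and the muscles were pooled, so that single mice cannot be paired. The genotype term does set the denervated pool against the sham pool of the same genotype, and without it 1667 genes were called, with Ncam1 at 3.54. With 1 library a group, the spread between mice could not be measured and the interaction could not be tested, and the sham libraries hold 234 and 235 reads of Ncam1.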
